A study of Mus musculus with 3 samples.

Results

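Ift80 and 4 genes around it on mouse chromosome 3, Smc4, Trim59, Kpna4 and Il12a, were examined for H3K36me3, histone H3 that is trimethylated at lysine 36. Ift80 was chosen by its measured difference between spleen and large intestine, where its gene-body H3K36me3 was lower in the large intestine. The other 4 genes were taken because they lie beside it. The difference at Ift80 is therefore a description of how it was selected and not a finding. A peak was given to a gene when its midpoint lay in the gene's GENCODE M21 body. By this rule 120 of the 120910 peaks of the table fell in the 5 genes, out of 11946 genes of all types with such a peak: 73 in Ift80, 14 in Smc4, 7 in Trim59, 26 in Kpna4 and 0 in Il12a.

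Treg cells, sorted as CD3+CD4+Foxp3-YFP+ cells, came from 2 tissues of adult C57BL/6 mice at steady state, the spleen and the large intestine. These mice carried the Foxp3Cre-YFP allele, in which Foxp3, the lineage gene of Treg cells, drives Cre and a yellow fluorescent reporter. Each tissue gave 1 chromatin immunoprecipitation sequencing library, made from the pooled cells of 14 mice, 7 of each sex, with the same antibody from Active Motif, and an input library from splenic Treg chromatin was not analysed here. With 1 library per tissue no difference could be set against the spread between replicates, so no p-value is given.

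H3K36me3 is written by the methyltransferase Setd2, which travels with elongating RNA polymerase II. The mark therefore lies over the bodies of transcribed genes, is low at their promoters and often grows towards their 3′ ends. In a pool of cells, fewer cells that carry the mark and less of the mark per cell cannot be told apart.

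The 5 genes differ in what they encode. Ift80 encodes a subunit of IFT-B, the complex that carries cargo into cilia by intraflagellar transport. Smc4 encodes an ATPase of condensin, the complex that compacts chromosomes for division, and its introns hold the miRNA genes Mir15b and Mir16-2. Trim59 encodes a tripartite motif protein of the ubiquitin ligase type, Kpna4 encodes an importin alpha that carries proteins into the nucleus, and Il12a encodes the p35 chain of the cytokines IL-12 and IL-35. Ift80 and Smc4 are on the splenic Treg signature list of the study, which rests on expression data of other samples, and the other 3 genes are on none of its signature lists.

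Values are in RPKM, a coverage per kilobase that is scaled by the number of mapped reads in a library, here averaged over each peak. Ratios are given as log2 of large intestine over spleen with 0.5 RPKM added to each value, after the large intestine column was scaled to the spleen total. A negative ratio means less H3K36me3 in the large intestine library, and -1 is a 2-fold difference. Intervals in parentheses are approximate 95% counting intervals, which treat reads as independent molecules of 200 bp and do not cover differences between mice or preparations.

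The following sequences show what lay under the peaks on which the description turns. The first is the Ift80 peak with the lowest ratio, in the forward strand of GRCm38.p6, the assembly of mm10, with its CG dinucleotide in capitals. The peak at chr3:68935554-68935840 had 15.3 RPKM in spleen and 2.56 in large intestine, a ratio of -2.41, and 39.0% G and C with 1 CG over its 287 bases. It is a short intron peak that rests on few reads, about 13.0 in spleen and 2.80 in large intestine.
Ift80 peak with the lowest ratio: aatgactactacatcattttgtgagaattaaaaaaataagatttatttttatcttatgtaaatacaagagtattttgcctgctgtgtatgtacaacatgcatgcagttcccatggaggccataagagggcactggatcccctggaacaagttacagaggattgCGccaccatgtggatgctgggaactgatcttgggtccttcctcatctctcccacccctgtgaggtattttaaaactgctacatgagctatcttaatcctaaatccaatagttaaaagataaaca

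A further region is the part of a Smc4 intron that holds the 2 miRNA genes, from the Mir15b hairpin (chr3:69009772-69009835) to the Mir16-2 hairpin (chr3:69009902-69009996), shown because 1 Smc4 peak covers both. The stretches that become miR-15b-5p and miR-16-5p are in capitals.
Mir15b to Mir16-2, chr3:69009772-69009996, plus strand: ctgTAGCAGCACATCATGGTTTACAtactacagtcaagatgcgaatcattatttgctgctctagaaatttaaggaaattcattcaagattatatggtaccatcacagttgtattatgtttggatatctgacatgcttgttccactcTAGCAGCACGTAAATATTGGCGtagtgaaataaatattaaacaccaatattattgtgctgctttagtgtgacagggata
The mature miRNAs, from RefSeq on GRCm38.p6, share their seed, bases 2 to 8, printed in capitals, and have the same base at 14 of 22 positions counted from the 5′ end.
miR-15b-5p: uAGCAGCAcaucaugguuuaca
miR-16-5p: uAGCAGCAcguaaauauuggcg

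Ift80 (ENSMUSG00000027778.15, chr3:68892499-69004570, minus strand, 112072 bp) had merged peaks over 62.0% of its body. A merged peak may have been called in only 1 tissue, and which tissue called it is not known here. The 73 peaks of Ift80 summed to 993.5 RPKM in spleen and 389.2 in large intestine. Averaged over the covered bases, the level was 15.0 RPKM in spleen and 6.25 in large intestine. The ratio of the sums was -1.40 (-1.51 to -1.28), so the spleen library held 2.63-fold more, and the scaled large intestine value was 38.0% of that of the spleen. These are the values for which the gene was chosen.

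The spleen library had 6.85 to 22.2 RPKM in single Ift80 peaks, with a median of 13.8. In the large intestine library the same peaks had 1.98 to 10.3 RPKM, with a median of 4.74. Both ranges overlapped, and before scaling 58 of the 73 peaks had more signal in spleen than any of them had in large intestine. No such count is given for other genes, and Ift80 was chosen on this contrast, so nothing is read from it. Against all 120910 peaks, the median Ift80 peak of the spleen was above 79.5% of the peaks of its library, and the median Ift80 peak of the large intestine was above 7.50%.

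Peak by peak, 72 of the 73 Ift80 peaks were lower in the large intestine and 56 of them (76.7%) were lower by over 2-fold, while 0 were higher by over 2-fold. Over all peaks of the table, 9.58% were over 2-fold lower and 9.03% over 2-fold higher in the large intestine. Peak length sets much of the noise: peaks under 1 kb had a standard deviation of the ratio of 0.88 over the table, and peaks of 1 kb or more one of 0.39. All 20 Ift80 peaks of 1 kb or more were lower, with ratios of -1.71 to -0.76, and 14 of them passed 2-fold, where 0.792% of all long peaks did. Of the 53 shorter ones 42 passed 2-fold, where 12.2% of all short peaks did. Because Ift80 was chosen on this contrast, nothing is read from these shares.

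The 4 longest Ift80 peaks were each lower in the large intestine. The peak at chr3:68960110-68964616, 4507 bp long, had 14.5 RPKM in spleen and 7.35 in large intestine, a ratio of -0.97. The 3645-bp peak nearest the gene's start, at chr3:68991324-68994968, had 15.1 and 7.86 RPKM, a ratio of -0.95. The peaks of 2875 bp and 2778 bp, at chr3:68914415-68917289 and chr3:68976064-68978841, had ratios of -1.21 and -1.71. The lowest and the highest of these 4 ratios were further apart than their counting standard errors, which ran from 0.17 to 0.23. The strongest spleen peak, at chr3:68964903-68967238, had 22.2 RPKM in spleen and 9.37 in large intestine.

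A single short Ift80 peak was higher in the large intestine, and 1 other was nearly level, at chr3:68908358-68908786, with 6.85 and 6.91 RPKM and a ratio of -0.03. The counting standard error of the latter was 0.65. Position in the gene separated the peaks little. The ratio was -1.52 over the 19 peaks of the segment nearest the start, -1.31 over the 27 of the middle segment and -1.41 over the 27 of the last segment, when the gene was cut into 3 of equal length, and these counting intervals overlapped. The 4 peaks with their midpoint in an exon gave -1.42 and the 69 intron peaks gave -1.39.

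No peak lay in the first 9.60 kb of the gene. The first peak from the start ends just upstream of the start of the transcript Ift80-201 at position 68994537, which begins inside the annotated gene, while other long Ift80 transcripts begin at its outer end. Which of these transcripts the cells used was not measured here.

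**Figure D1:**
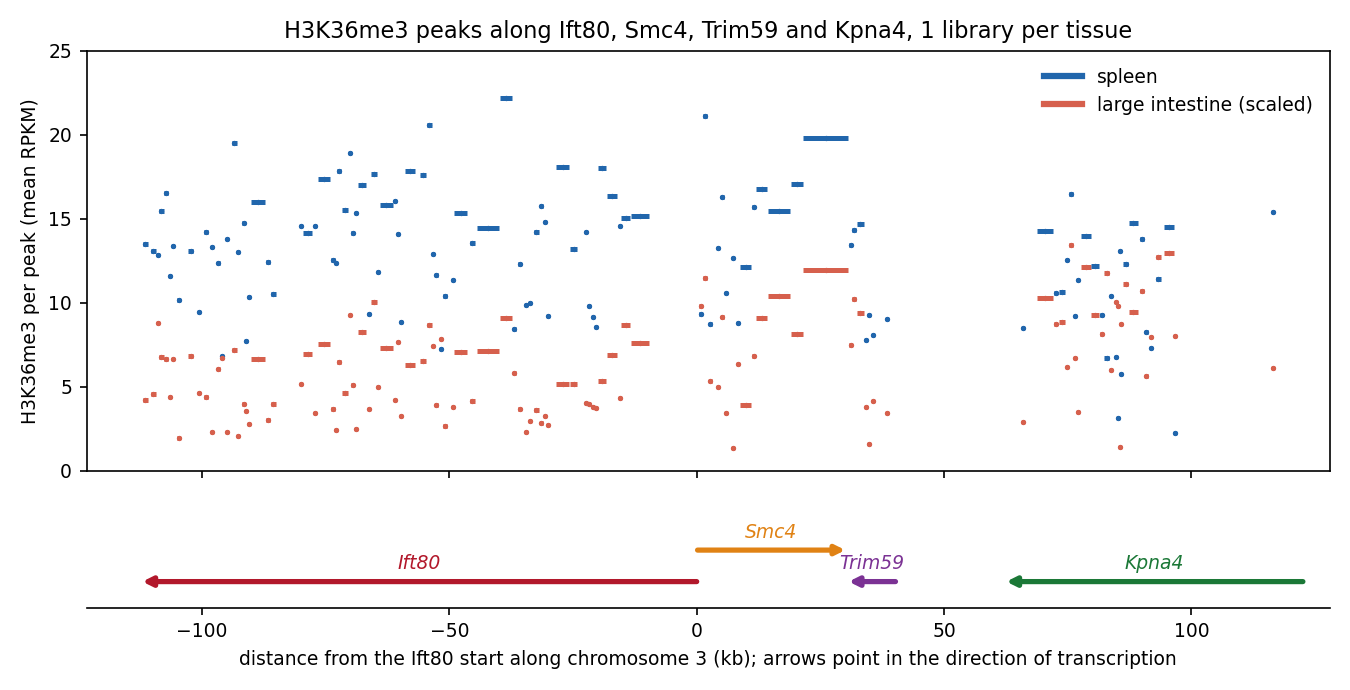
H3K36me3 of each of the 120 peaks in mean RPKM (vertical axis) against the distance from the Ift80 start in kb (horizontal axis, Ift80 to the left), for spleen (blue) and large intestine (red, scaled to the spleen total); each bar spans 1 peak, with a dot at its midpoint, and arrows mark the genes. The spleen bar lies above its large intestine bar in 72 of 73 peaks of Ift80, 13 of 14 of Smc4 and 7 of 7 of Trim59, and in 19 of 26 of Kpna4.

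Smc4 (ENSMUSG00000034349.14, chr3:69004738-69034623, plus strand, 29886 bp) starts 167 bp from the Ift80 start and is transcribed away from it. Its 14 peaks covered 81.8% of the body and summed to 197.7 RPKM in spleen and 105.3 in large intestine. The mean over covered bases was 16.6 RPKM in spleen and 9.71 in large intestine, so the spleen level was close to that of Ift80 and the large intestine level was above it. The ratio was -0.95 (-1.16 to -0.74), a 1.93-fold higher sum in spleen. Of its peaks 13 were lower in the large intestine, beside 51.0% of all peaks of the table, and all 5 of its long peaks were lower. The share over all peaks does not match for G and C content. Peaks with the content of the Smc4 peaks had a median ratio of -0.40, and set against them Smc4 had -0.67. By over 2-fold 6 Smc4 peaks were lower (42.9%), beside 9.58% of all peaks.

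In both libraries the level in Smc4 was higher towards the 3′ end. The covered bases of the first, middle and last segments of equal length had 12.8, 15.9 and 19.2 RPKM in spleen, and 6.13, 10.005 and 11.5 RPKM in large intestine. The ratios of these segments were -1.01, -0.86 and -0.86, with counting standard errors of 0.17, 0.16 and 0.10, and their counting intervals overlapped. Its last peak, at chr3:69026151-69035226, was the longest of the 120, at 9076 bp, and ran past the end of the gene to just short of Trim59. It had 19.8 RPKM in spleen and 12.3 in large intestine, a ratio of -0.70 with a counting standard error of 0.094.

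The peak nearest the Smc4 start, at chr3:69005047-69005717, was the only one of the 14 that was not lower in the large intestine. It had 9.32 RPKM in spleen and 10.1 in large intestine, a ratio of 0.07 with a counting standard error of 0.44. Its G and C content was 67.1%, against a median of 37.2% over the Smc4 peaks. At the other extreme, the 446-bp peak at chr3:69011623-69012068 had 12.7 and 1.37 RPKM, a ratio of -2.85 that rests on about 2.33 large intestine reads. The peak over Mir15b and Mir16-2, at chr3:69009509-69009997, had 16.3 RPKM in spleen and 9.43 in large intestine, a ratio of -0.80 with a counting standard error of 0.45 (about 23.6 and 17.6 reads). At this depth the miRNA stretch could not be separated from the rest of Smc4.

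Trim59 (ENSMUSG00000034317.14, chr3:69035288-69044755, minus strand, 9468 bp) ends 664 bp from the Smc4 end, so the 2 genes are transcribed towards each other. Its 7 peaks covered 46.3% of the body and summed to 76.6 RPKM in spleen and 41.3 in large intestine, a ratio of -0.93 (-1.32 to -0.53). All 7 were lower in the large intestine, where 51.0% of all peaks of the table were. That share does not match for G and C content. Peaks with the content of the Trim59 peaks had a median ratio of -0.44, and set against them Trim59 had -0.47. Of the 7, 2 (28.6%) were lower by over 2-fold, beside 9.58% of all peaks. The 3 Trim59 peaks with their midpoint in an exon, all in the last of its 3 segments, had the higher levels. These were 14.4 RPKM in spleen and 9.55 in large intestine over their covered bases, with a ratio of -0.64. The 4 intron peaks had 8.37 and 3.49 RPKM and a ratio of -1.36, but the counting intervals of these groups, -1.05 to -0.23 and -2.16 to -0.57, overlapped.

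Kpna4 (ENSMUSG00000027782.10, chr3:69067149-69127113, minus strand, 59965 bp) lies 22.4 kb beyond Trim59. Its 26 peaks covered 37.5% of the body and summed to 274.8 RPKM in spleen and 229.5 in large intestine. The ratio was -0.30 (-0.49 to -0.12), and it turned to 0.086 when each peak was set against peaks of the same G and C content. Of the 26 peaks 19 were lower and 7 higher in the large intestine, where 51.0% of all peaks of the table were lower. By over 2-fold, 4 were lower (15.4%) and 2 higher, beside 9.58% and 9.03% of all peaks. In Kpna4 the spleen peaks had 2.26 to 16.4 RPKM and the large intestine peaks 1.46 to 13.8 RPKM.

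Along Kpna4 the ratio was lower in the 3′ part than in the middle. The counting intervals of these segments overlapped only between -0.31 and -0.27. An interval of their difference was not computed, so the overlap does not show that they are alike. The segment ratios are without the G and C correction. The last of 3 segments had 128.9 RPKM in spleen and 92.9 in large intestine over 11 peaks, all of them lower, with a ratio of -0.52 (-0.76 to -0.27). The middle segment had 130.5 and 130.3 RPKM over 14 peaks, 7 of them lower, with a ratio of -0.05 (-0.31 to 0.22). The 2 peaks over 2-fold higher were 334 bp and 200 bp long and had 3.16 and 2.26 RPKM in spleen against 10.1 and 8.28 in large intestine, on about 3.12 and 1.34 spleen reads. A single peak lay in the first segment, with 15.4 and 6.32 RPKM and a ratio of -1.26, and its midpoint also lies in the transcript model Gm37558.

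Il12a (ENSMUSG00000027776.12, chr3:68690644-68698547, plus strand) had no peak listed, so no value is given for it. It lies 194 kb beyond the 3′ end of Ift80. The table holds only merged peaks, so the coverage under Il12a is not known.

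**Figure D2:**
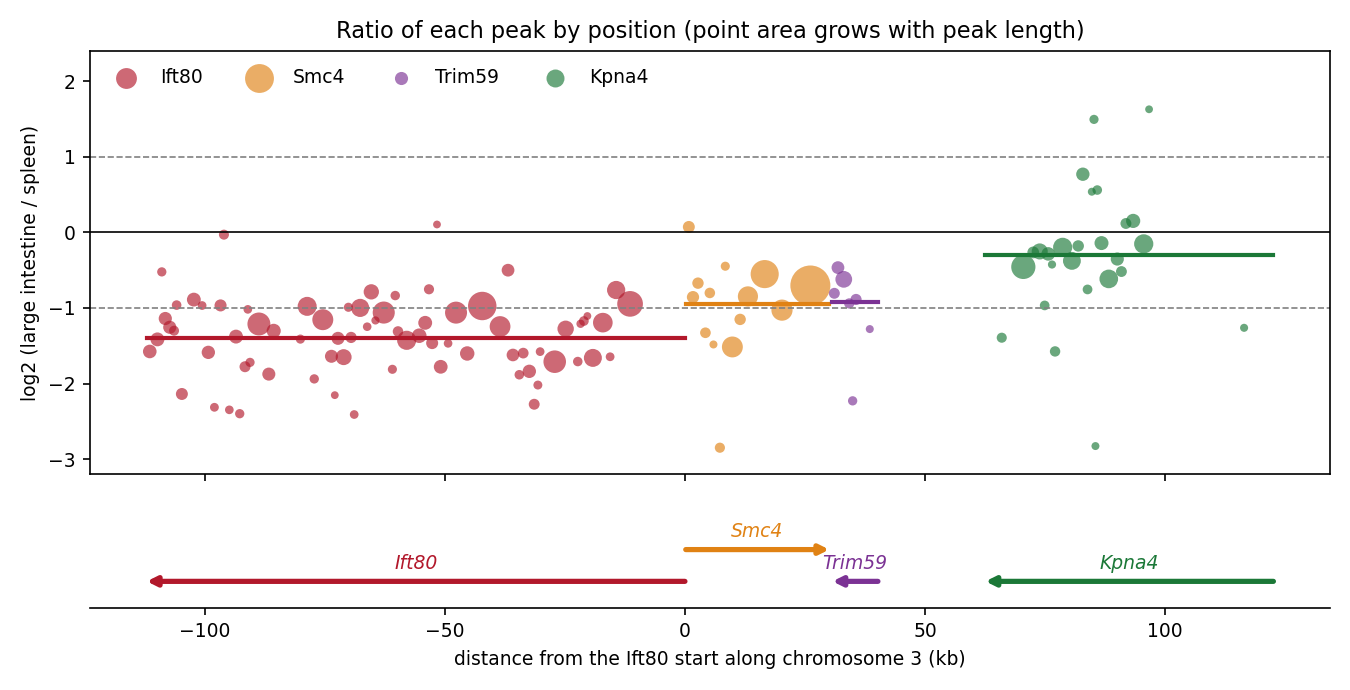
Log2 ratio of H3K36me3 (large intestine to spleen) of each of the 120 peaks (vertical axis) against the distance from the Ift80 start in kb (horizontal axis); point area grows with peak length, thick lines give the ratio of each gene's sum, and dashed lines mark 2-fold. The large Ift80 points gather between -1.71 and -0.76, and the Kpna4 points gather near 0 with a few short peaks far from it.

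Set side by side, the ratios ran from Ift80 over Smc4 and Trim59 to Kpna4. Ift80 was chosen for its low ratio, so its distance from the others is a description, and its intervals give counting error only. The Smc4 ratio was 0.45 above that of Ift80 (0.21 to 0.69), and that of Trim59 was 0.47 above Ift80 (0.06 to 0.88). Smc4 and Trim59 could not be separated, with a difference of 0.02 (-0.42 to 0.47). Kpna4 was 1.09 above Ift80 (0.87 to 1.31), 0.65 above Smc4 (0.37 to 0.93) and 0.62 above Trim59 (0.19 to 1.06).

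Among the 9456 protein-coding genes whose libraries together reached 20 RPKM, the median ratio was 0.00, with quartiles of -0.20 and 0.23, and 1.81% were over 2-fold lower in the large intestine. Ift80 is 1 such gene among the 4 members with a peak. Counted from the lowest ratio, Ift80 ranked 58, Smc4 192, Trim59 196 and Kpna4 1513 of these genes. Ranking all genes by the contrast that chose Ift80 is a description only. Of 1823 genes with at least 20 peaks, 34 had at least 95% of their peaks lower in the large intestine, Ift80 among them.

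**Figure D3:**
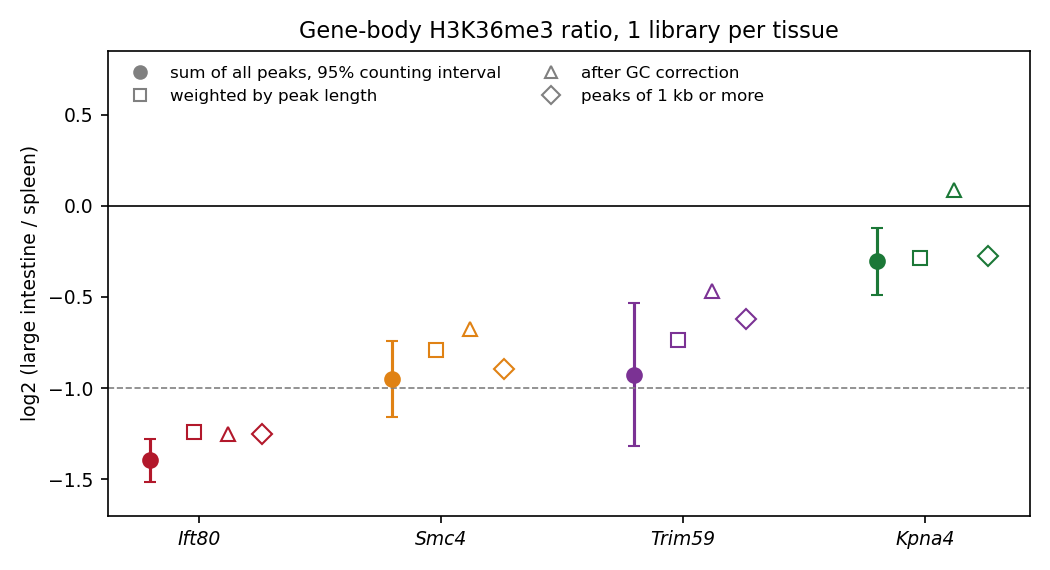
Log2 ratio of H3K36me3 (large intestine to spleen) of the 4 genes with peaks (vertical axis), as the ratio of summed peaks with its 95% counting interval (filled), weighted by peak length (square), set against peaks of the same G and C content (triangle) and from peaks of 1 kb or more (diamond). Ift80 lies below -1 in each, and Kpna4 lies at -0.30 and above 0 only for the triangle, at 0.086.

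Over all members, 111 of 120 peaks were lower in the large intestine, 68 (56.7%) by over 2-fold and 2 higher by over 2-fold. Of all 120910 peaks, 51.0% were lower, 9.58% by over 2-fold, and 9.03% were over 2-fold higher. Among the 33 long peaks, 32 were lower and 16 (48.5%) passed 2-fold. Ift80 gave 56 of the 68 peaks past 2-fold, so the shares over all members mostly restate the gene that was chosen. Smc4 and Trim59 gave 6 and 2, and Kpna4 gave 4.

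**Figure D4:**
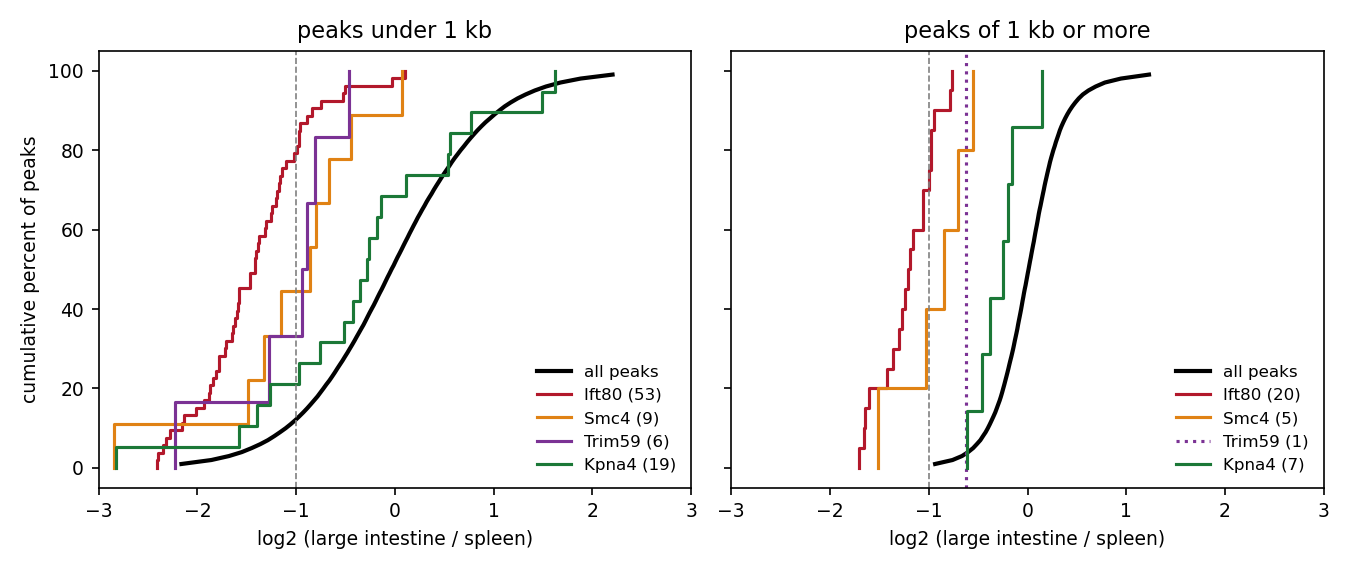
Cumulative percent of peaks (vertical axis) against the log2 ratio (large intestine to spleen, horizontal axis) for all peaks of the table (black, drawn without the outermost percent at each end) and for each gene (colours, number of peaks in brackets), for peaks under 1 kb (left) and of 1 kb or more (right); the dashed line marks 2-fold lower. The long Ift80 peaks lie between -1.71 and -0.76, where few long peaks of the table lie, and the short Kpna4 peaks run nearest to the black curve.

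The stretch stood alone on this part of the chromosome. In a window of 936 kb that reached 250 kb past the outermost members, 120 of 121 peaks lay in the members, within 229 kb. The remaining peak, at chr3:68892119-68892495, lay just past the 3′ end of Ift80 and had 9.96 RPKM in spleen and 2.11 in large intestine, a ratio of -2.04. The first peak inside the gene there, at chr3:68892670-68893584, had 13.5 and 4.32 RPKM and a ratio of -1.58.

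The nearest peaks beyond lay 1288 kb before and 604 kb after the stretch. The window held 25 other annotated genes, 5 of them protein-coding, namely Iqschfp, Schip1, 1110032F04Rik, Arl14 and Ppm1l, and 0 of these had a peak. Peak midpoints did fall in 4 small genes inside members, Gm18588 and Gm20691 in Ift80 and Gm22009 and Gm37558 in Kpna4, whose signal cannot be told apart from that of the host.

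In steps of 10 kb from the Ift80 start, 20 steps held a peak, 19 of them were lower in the large intestine and 14 by over 2-fold. Most of these 14 lie over Ift80, the gene that was chosen, so the count mostly restates that choice. The share over steps elsewhere in the genome was not computed. Over Ift80 the ratio ran from -1.67 to -1.17, or to -1.83 in the last step, which includes the peak past its end. Over Smc4 and Trim59 it ran from -1.01 to -0.86. The step that was not lower, at 90 to 100 kb on the Kpna4 side, had 57.5 RPKM in spleen and 59.8 in large intestine, a ratio of 0.01. The Kpna4 steps at 80 to 90 kb and 70 to 80 kb had ratios of -0.14 and -0.50. Its outermost steps, at -1.26 and -1.39, are among the 14 but each held 1 short peak, with about 5.42 and 5.01 large intestine reads. The longest gaps between peaks were 27.2 kb between Trim59 and Kpna4, 19.6 kb in the 5′ part of Kpna4 and 10.1 kb across the shared start region of Ift80 and Smc4.

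What the members shared beyond position was a low G and C content. The median peak had 37.2% in Smc4, 36.5% in Trim59, 37.0% in Kpna4 and 42.2% in Ift80, against 46.5% over all peaks. Peaks of the whole table with the same content also had lower ratios, with medians of -0.40, -0.44, -0.41 and -0.14 for those 4 genes. Set against these, the ratios became -0.67 for Smc4, -0.47 for Trim59, 0.086 for Kpna4 and -1.25 for Ift80. Within Ift80 the peaks of low, middle and high G and C content had ratios of -1.41, -1.39 and -1.38. Their counting standard errors were 0.11, 0.086 and 0.11. Peaks of the whole table with the same content had medians of -0.30, -0.14 and 0.02. The part of the content in the gene's ratio was not tested.

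The other genes of the same complexes were compared next. Of 17 annotated IFT-B genes besides Ift80, 8 had a peak and 7 reached 20 RPKM, of which 3 were lower and 4 higher in the large intestine, with a median ratio of 0.01. The lowest was Ift46, with 100.8 RPKM in spleen, 95.3 in large intestine and a ratio of -0.13 (-0.50 to 0.24). The highest was Ift27, a small GTPase of the complex, with 69.6 and 110.3 RPKM and a ratio of 0.61 (0.30 to 0.93). None of the 7 was past 2-fold. Ift80 was picked for its low ratio, so nothing is read from its distance to this list. No peak was listed for Ift57, Ift74, Ift81, Ift88 and 5 more.

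Of 7 other condensin genes, 6 had a peak, 4 of them lower and 2 higher, with a median ratio of -0.12 and 0 past 2-fold. Smc2, the partner ATPase of Smc4, was the lowest, with 111.2 RPKM in spleen, 72.9 in large intestine and a ratio of -0.65 (-1.09 to -0.21), an interval that overlapped that of Smc4. Ncaph was the highest, at 151.1 and 173.6 RPKM and a ratio of 0.15. The 4 other SMC genes, which belong to cohesin and the Smc5/6 complex, were all lower, with a median of -0.33. They ran from -0.60 in Smc6 (-0.77 to -0.44) to -0.10 in Smc3 (-0.26 to 0.07), whose counting interval included 0. Over all genes that reached 20 RPKM the median was 0.00.

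All 5 other importin genes with a peak were lower by a little, but the counting interval of each included 0. Their median ratio was -0.15, from -0.18 in Kpna6 to -0.15 in Kpna3. Their counting intervals each overlapped that of Kpna4, whose ratio turned to 0.086 with the G and C correction. Of the 9 genes of the IL-12 family and its receptors, 5 had a peak and 4 reached 20 RPKM, 2 lower and 2 higher, with a median of 0.29. Il6st, a shared receptor chain, had 240.6 RPKM in spleen and 218.0 in large intestine, a ratio of -0.19, and Ebi3, which pairs with the Il12a product in IL-35, had 8.50 and 17.5 RPKM over 1 peak, a ratio of 0.95 (0.00 to 1.91). No peak was listed for Il12b, Il23a, Il27 and Il12rb2. In all these lists 0 genes that reached 20 RPKM were past 2-fold, beside the 1.81% of all such genes that were over 2-fold lower. Il23r, below that level with 3.24 RPKM in spleen and 8.08 in large intestine over 1 peak, had a ratio of 1.15 (-0.58 to 2.89).

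**Figure D5:**
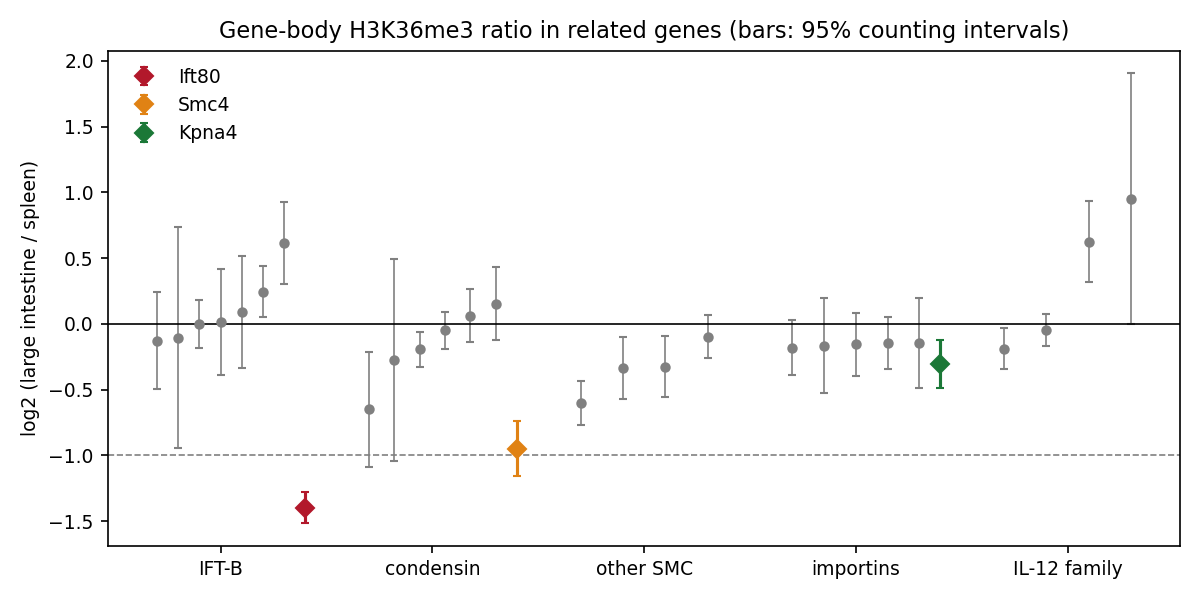
Log2 ratio of H3K36me3 (large intestine to spleen) (vertical axis) of genes with at least 20 RPKM in 5 lists of related genes (grey points), with Ift80, Smc4 and Kpna4 (coloured diamonds) beside their lists; bars are 95% counting intervals and the dashed line marks 2-fold lower. Ift80 lies at -1.40 beside an IFT-B list that runs from -0.13 to 0.61.

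The protein-coding genes with the ratio closest to that of Ift80, among 4165 genes with at least 200 RPKM, were Fry (chr5:150118645-150497753), Btla (chr16:45224315-45257670) and Nod1 (chr6:54923949-54972612). Fry, which encodes a large cytoskeletal regulator, had 513.3 RPKM in spleen and 199.9 in large intestine, a ratio of -1.40 with all 45 peaks lower. Btla, an inhibitory receptor of lymphocytes, had 160.8 and 63.1 RPKM, a ratio of -1.39 with all 12 peaks lower. Nod1, a sensor of bacterial cell walls, had 360.6 and 132.8 RPKM, a ratio of -1.48 with all 25 peaks lower. This likeness is a difference of ratios over 2 libraries and no more.

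Marker genes of the sorted cells and of other cells were read from the same libraries. All 5 Treg markers and all 4 T cell markers had peaks, with summed values of 1685 and 235.1 RPKM in spleen and 1413 and 211.9 RPKM in large intestine. The lower Treg sum came from Ikzf2, with 1205 and 850.7 RPKM and a ratio of -0.55, while Ctla4, Tnfrsf18 and Foxp3 were higher in the large intestine, with ratios of 0.59, 0.80 and 0.19, and the median Treg marker had 0.19. Of the T cell markers Cd4 had a ratio of 0.13, and Cd3g, Cd3e and Cd3d had -0.28, -0.41 and -0.46. B cell markers summed to 60.2 and 53.4 RPKM over the 3 genes Cd79a, Cd79b and Pax5, with no peak listed for Ms4a1. The lower B cell sum came from Cd79a, at -0.70 (-1.32 to -0.08). Cd79b and Pax5 had 0.54 (-0.06 to 1.14) and 1.15 (-0.75 to 3.05) over 1 peak each, and Pax5 did not reach 20 RPKM. Myeloid markers summed to 29.7 and 31.3 RPKM over 2 of 5 genes. Intestinal epithelial markers were higher in the large intestine library, at 29.9 and 59.8 RPKM over 2 of 5 genes. No peak was listed for Cdh1, Krt8 and Krt20. Epcam had 25.3 and 47.2 RPKM, a ratio of 0.84 (0.23 to 1.46). Vil1 had 4.63 and 12.6 RPKM over 1 peak and did not reach 20 RPKM, with a ratio of 1.31 (-0.13 to 2.75). The part of other cells in the ratios above was not tested.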

How the data were processed

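The deposited table, labelled as raw counts, held values that were not whole numbers: the authors made mean RPKM coverage per peak. Reads of 75 nt were aligned to mm10, MACS2 called peaks per tissue over the input, bedtools merged them, and RPKM tracks from bamCoverage were averaged per peak with multiBigwigSummary. Bowtie2 and FastQC are in the submitters' processing notes. Peaks merged from both tissues differ in number and length between genes, and sums of peak values do not weight them by length. In low peaks, value times length came in whole steps, in which 1 read in 1 bin was worth 1.69 RPKM (spleen) or 1.31 RPKM (large intestine). Track bins of 20 bp gave whole steps in 98.8% and 99.8% of the peaks that could be checked, and with them the steps correspond to 29627456 and 38096773 mapped reads. The column totals over all peaks were 1311293 and 1353313 RPKM.

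Peaks were matched to GENCODE M21 by midpoint (21 of 21 chromosomes matched GRCm38, with 0 peaks past an end). Peak values were summed per gene, the large intestine column was divided by the ratio of the totals, 1.03, and log2 ratios used a pseudocount of 0.5 RPKM, which understates changes of low genes. Counting intervals took 200 bp per read, the longer of 2 lengths, and would be narrower at 75 bp (0.04 in place of a standard error of 0.06 for Ift80). Exon and intron refer to the midpoint. G and C content was read from GRCm38.p6. Both value columns were mapped to their samples by name. Analyses used Python 3.11.15, numpy 2.4.6, pandas 2.3.3, scipy 1.17.1 and matplotlib 3.10.9. The ratio and its interval were also run on simulated reads. These were drawn as independent molecules of 200 bp, as the interval assumes, so the run checks the calculation and not its fit to real libraries.

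The members and lists were chosen with earlier results of these data known. Named genes were the members, every gene within 250 kb of them (those that neither had a peak nor were protein-coding are only counted), the highest and lowest of each list, the 3 genes with the ratio nearest to Ift80, and miRNA genes in members; other genes named for context were chosen after their values were seen. Alternatives were other scalings, pseudocounts, peak filters, peak-to-gene rules, weighting by length, the strongest peak and a G and C correction. 1 marker gene and 1 sequence are not reported here.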

Additional observations from a re-analysis of the deposited data

How the results depend on the processing

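Of 59 alternative values of 6 results, 46 stayed within the 95% counting interval of the reported ratio or the exact binomial 95% interval of the reported share, 12 moved and 1 changed sign. The binomial interval treats peaks or steps as independent, which neighbours in the same gene are not. It serves here only to sort the alternatives and measures no spread between samples. Ift80 kept its direction in all of its alternatives, from -1.43 to -1.19. It was chosen for a low ratio in these same libraries, so the kept direction is a description and no support. Its alternatives show only how far the size moved. The Ift80 ratio was -1.25 with the G and C correction, -1.24 weighted by peak length and -1.25 for its strongest peak. It was -1.19 for peaks whose libraries together reached 20 RPKM and -1.25 for peaks of 1 kb or more. Smc4 was -0.67 with the G and C correction. Trim59 was -0.47 with that correction, -0.47 for its strongest peak and -1.36 for intron peaks. Kpna4 changed sign with the correction, to 0.086. The share of member peaks over 2-fold lower went from 56.7% to 24.2% with a pseudocount of 5, 46.7% with the correction and 40.8% for peaks with at least 20 RPKM, and the share of steps over 2-fold lower from 70.0% to 63.6% in steps of 20 kb. The cause was not tested. Giving each peak to its nearest transcript start left Kpna4 with no peak and so no value. No paired analysis was possible because each tissue had 1 library, and for the same reason no replicate could be left out.

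Peaks under 1 kb often hold few reads, so single short peaks carry little weight, and no value covers the spread between mice or immunoprecipitations.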
